A study of Mus musculus with 70 samples.

Results

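The striatum of hypothyroid mice was compared with that of untreated wild-type mice in 14 RNA-seq libraries, 7 of each group, out of 70 libraries in a series that also covers cortex and 3 other groups of mice. Members were chosen by their labels alone: every library labelled striatum and wild type (WT), and every library labelled striatum and hypothyroid wild type (MMI). MMI mice were C57BL/6J males whose dams received 0.02% methimazole in the water, a blocker of thyroid hormone synthesis, together with 1% potassium perchlorate, which keeps iodide out of the thyroid. The dams drank it from embryonic day 9 until postnatal day 21. Their striatum was taken on postnatal days 21 to 23, at the end of the treatment. WT mice were untreated. The sources used here give neither their age nor their sex, nor the number of litters behind either group. Both groups are labelled wild type. The labels do not say that the libraries of a group are separate animals, so p-values measure the spread between these samples, part of which may be technical.

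Thyroid hormone enters the brain mostly as T4, is converted there to the active form T3 by type 2 deiodinase, and acts through nuclear receptors that bind DNA as partners of retinoid X receptors. Some genes are switched on when T3 binds the receptor, and others are repressed by it. In the striatum, the input station of the basal ganglia, most neurons are GABAergic projection neurons of a direct pathway (D1 dopamine receptor) and an indirect pathway (D2 dopamine receptor), among sparse interneurons, glia and fibre bundles that become myelinated in the weeks around weaning.

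Reads assigned to genes numbered 8984488 to 19076334 per library in WT and 9409659 to 18686479 in MMI. The biological coefficient of variation was 0.0917 over both groups. Values per library are normalised read counts, scaled by TMM to a common library size (CPM), and ranges such as 89.6–139 run from the lowest to the highest of 7 libraries (Dio2 in WT, as an example). The label was checked against markers of the tissue: Drd1, the D1 receptor gene, lay at 248 to 322 CPM of library totals in WT striatum against 12.3 to 28.9 in the 7 WT cortex libraries. Drd2 lay at 146 to 199 CPM against 1.87 to 10.8. Slc17a7, the glutamate transporter of cortical neurons, lay at 1462 to 1987 CPM in cortex, and 3 striatal libraries, WT 3, WT 6 and MMI 1, held more of it (329 to 389 CPM with TMM scaling) than the other 11 (60.6 to 200.5 CPM). Choroid plexus transcripts were scarce in 2 hypothyroid libraries, MMI 2 and MMI 7, where Ttr measured 123 and 41.6 CPM against 2119 to 5213 CPM in the other 12. Values without these libraries stand beside the choroid plexus genes and several other groups. The first principal component held 45.7% of the variance, and all MMI libraries lay on one side of it and all WT libraries on the other. Because a whole tissue piece was sequenced, fewer cells of a type and less RNA per cell cannot be told apart.

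Of 15742 genes tested, 3219 were higher and 3215 lower in MMI at an adjusted p under 0.05 (edgeR's quasi-likelihood test, Benjamini-Hochberg), and such genes are said to be called. That is 40.9% of all genes tested, 20.4% in each direction. The counts of each gene list below are to be read against that 20.4%. Most changes were small: 4985 of the 6434 called genes (77.5%) changed by less than 1.5-fold, while 208 rose and 252 fell at least 2-fold. In 1083 genes (6.88%) all 7 MMI libraries lay above all 7 WT libraries, and in 1357 (8.62%) all lay below. The median log2 change over all tested genes was 0.01. The scaling between libraries bears on small changes, since TMM factors were 0.946 to 0.982 in WT and 1.02 to 1.04 in MMI: with library totals alone the median moved to 0.11 and the calls to 5413 higher (73.5% of calls) and 1951 lower, against an even split here. Values with library totals alone stand beside several of the gene groups that this scaling moved.

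**Figure D1:**
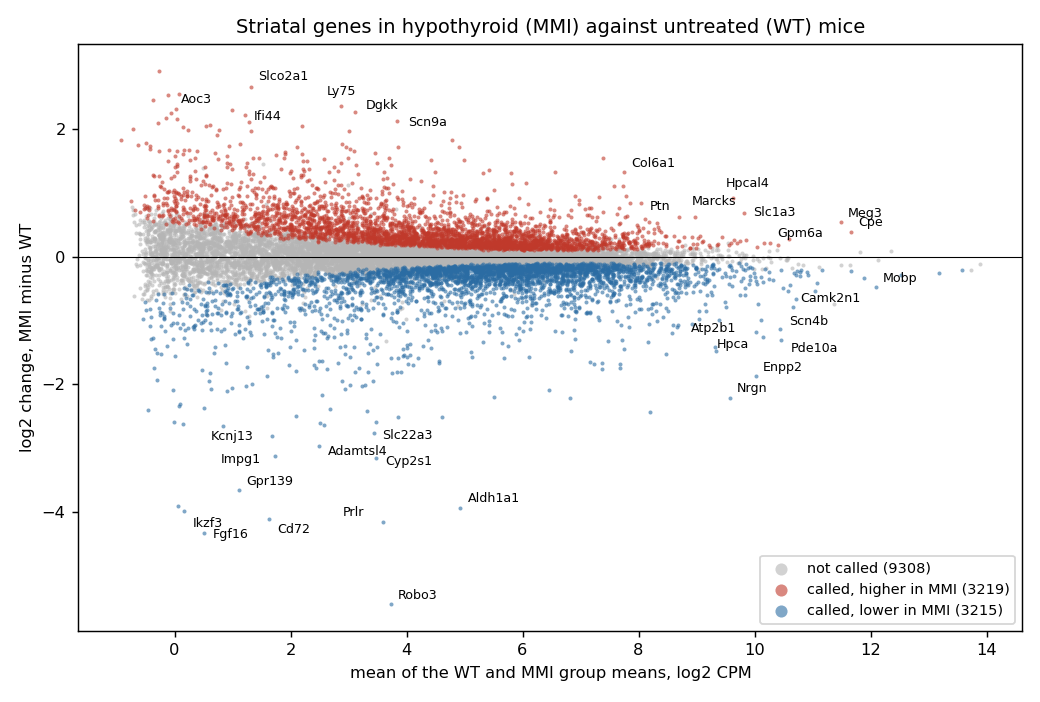
Each point is one of the 15742 genes tested, with its mean normalised read count on the x axis (log2 CPM) and its log2 change, MMI minus WT, on the y axis. Red and blue points passed the test; the named falls reach -5.45 (Robo3) while the named rises stay below 2.66 (Slco2a1).

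The genes of the hormone system itself shifted in MMI. Dio2 (ENSMUSG00000007682, chromosome 12, 90724552 to 90738438, GRCm38), the gene of type 2 deiodinase, which turns T4 into T3, measured 89.6–139 CPM (median 109) in WT and 191–238 CPM (median 204) in MMI. Every MMI library lay above every WT library, and the log2 change was 0.93 ± 0.08, adjusted p = 3.97e-08. Crym, whose product mu-crystallin binds T3 in the cytosol, rose from 90.2–183 CPM (median 161) to 258–328 CPM (median 294), again without overlap (0.95 ± 0.13, adjusted p = 5.8e-05). The amino acid transporter genes Slc7a5 (log2 change 0.70 ± 0.08, adjusted p = 1.01e-06) and Slc7a8 (0.32 ± 0.05, adjusted p = 2.23e-05), whose products also carry thyroid hormones, rose without overlap too. Slco1c1, the gene of the T4 transporter OATP1C1, was called with a small change of 0.18 ± 0.05, adjusted p = 0.00906, with overlapping groups, and lost its call when all 35 striatal libraries of the series shared the fit (0.17, adjusted p = 0.103). Slc3a2, the heavy chain partner of the amino acid transporters, measured 0.02 ± 0.04, adjusted p = 0.689, and Slc16a10 measured -0.28 ± 0.24, adjusted p = 0.379. Dio3, which encodes the inactivating deiodinase, had at most 12 reads in any of the 14 libraries and was not tested, and Dio1 had none.

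Among 16 genes of receptors and cofactors, 2 were higher and 3 lower, which is near the background shares (7 higher and 3 lower with library totals alone). Thra, the main receptor gene of neurons, rose from 592–645 CPM (median 612) to 712–812 CPM (median 755), and the groups did not overlap (0.31 ± 0.04, adjusted p = 8.79e-06). Thrb, the second receptor gene, fell with overlapping groups, from 34.05–52.7 CPM (median 41.6) to 27.5–37.1 CPM (median 29.5) (-0.40 ± 0.09, adjusted p = 0.00221). Of the retinoid X receptors, Rxrg fell most, from 111–242 CPM (median 147) to 68.6–107 CPM (median 87.6) (-0.85 ± 0.16, adjusted p = 0.000718). Rxrb fell less but without overlap (-0.34 ± 0.04, adjusted p = 3.29e-07), and Rxra measured 0.11 ± 0.06, adjusted p = 0.191. Hdac3, the deacetylase of the corepressor complex, was the other call, at 0.18 ± 0.05, adjusted p = 0.00285. The corepressors and coactivators Ncor1, Tbl1x, Tbl1xr1, Ncoa1, Ncoa2, Ncoa3, Med1, Ep300 and Crebbp were not called, with log2 changes of -0.13 to 0.19.

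Genes known to be induced by thyroid hormone in brain fell almost throughout. Of 28 listed, 25 passed the filter on low counts, and of these 22 were lower and 1 higher, with a median log2 change of -1.40, against 20.4% lower and a median of 0.01 over all genes tested. The list was drawn up with earlier results from these mice known, so it is not independent evidence of its direction. Hr, a corepressor that is a textbook target of the hormone, measured 68.8–87.2 CPM (median 74.5) in WT and 24.3–32.9 CPM (median 30.4) in MMI. Klf9, a hormone-induced transcription factor, went from 183–248 CPM (median 243) to 122–163 CPM (median 133). In both genes all MMI libraries lay below all WT libraries, with log2 changes of -1.40 ± 0.07, adjusted p = 1.04e-11, and -0.72 ± 0.08, adjusted p = 5.69e-07. Nrgn, which encodes neurogranin, the calmodulin-binding protein of dendritic spines, fell from 1077–1502 CPM (median 1185) to 229–353 CPM (median 253) (-2.21 ± 0.10, adjusted p = 3.3e-11). Sema7a, a membrane semaphorin, fell from 148–221 CPM (median 197) to 31.3–47.7 CPM (median 42.4) (-2.21 ± 0.11, adjusted p = 5.43e-10). Both changes left a wide gap between the groups. The other falls of at least 2-fold were those of Gls2 (-2.01), Paqr6 (-2.05), Shh (-1.999), Nefm (-1.69), Cntn2 (-1.68), Rasd2 (-1.47), Kcnj10 (-1.44), Adamtsl5 (-1.44), Flywch2 (-1.41), Abcd2 (-1.34), Homer1 (-1.10), Itih3 (-1.08) and Aldh1a1 (below). Itga7, Nefh, Stard4, Kcnc1 and Dbp fell by less, with log2 changes of -0.81 to -0.17. The exceptions were the myelin genes Mbp (-0.12 ± 0.09, adjusted p = 0.295) and Mag (0.10 ± 0.09, adjusted p = 0.415), and Cxadr, a cell adhesion receptor, which rose (0.36 ± 0.06, adjusted p = 5.38e-05). Dbp was the only one of the 22 that fell by less than 0.4 on the log2 scale, and it was no longer lower with library totals alone (-0.07, adjusted p = 0.35).

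Genes known to be repressed by the hormone moved the other way. Of 12 tested, 11 were higher and none lower, against 20.4% higher over all genes, and their median was 0.80. This list, too, was drawn up with earlier results from these mice known, so it is not independent evidence of its direction. Col6a1 and Col6a2, which encode chains of type VI collagen and lie near each other on chromosome 10, rose together. Col6a1 went from 103–156 CPM (median 126) to 279–364 CPM (median 300.0) (1.32 ± 0.09, adjusted p = 1.86e-09), and Col6a2 from 31.5–40.6 CPM (median 34.2) to 69.3–89.7 CPM (median 75.96) (1.13 ± 0.06, adjusted p = 3.3e-11). Neither overlapped between the groups. Other rises were those of Mamdc2 (1.61), Gpc3 (1.20), Odf4 (0.84), Marcksl1 (0.76), Hapln1 (0.67), Syce2 (0.60), Agbl3 (0.54) and Tubb2b (0.25), and Dgkg measured -0.29 ± 0.13, adjusted p = 0.0953.

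**Figure D2:**
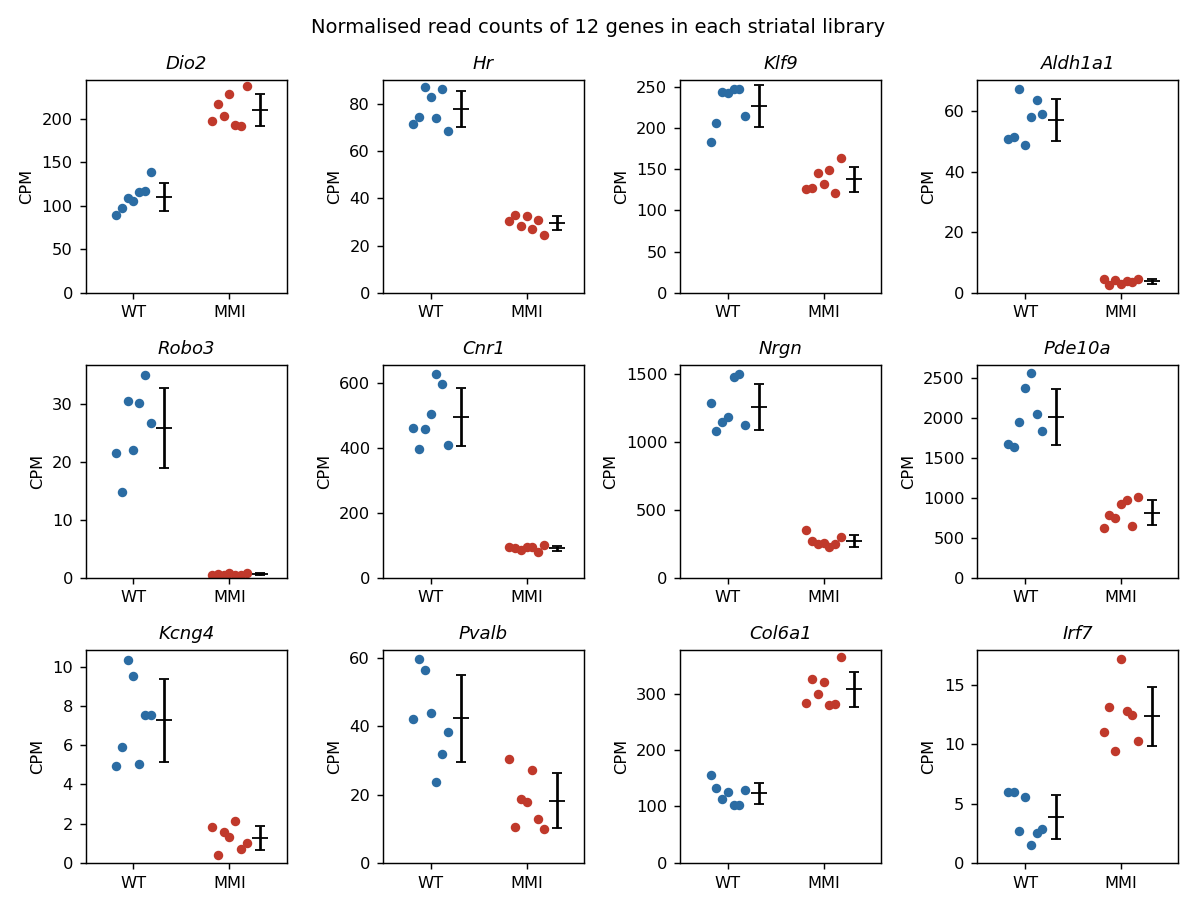
Normalised read counts (CPM, y axis, from 0) of 12 genes in each WT (blue) and MMI (red) library, with the mean and SD of each group in black. Pvalb is the gene whose groups overlap; in the other 11 the MMI libraries all lie on one side of the WT libraries.

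The gene with the largest fall in MMI was Robo3 (ENSMUSG00000032128, chromosome 9, 37415669 to 37433246), which encodes a receptor of axons that cross the midline. It measured 14.8–35.02 CPM (median 26.7) in WT and 0.418–0.831 CPM (median 0.52) in MMI, where its 7 libraries held 60 reads in all against 2393 in WT (-5.45 ± 0.23, adjusted p = 1.49e-11). Aldh1a1 (ENSMUSG00000053279, chromosome 19, 20492715 to 20643465), a retinaldehyde dehydrogenase that makes retinoic acid, fell from 48.8–67.3 CPM (median 58.2) to 2.64–4.68 CPM (median 3.97) (-3.94 ± 0.11, adjusted p = 4.99e-15). These 2 genes were at a small fraction of their WT level in every MMI library. The other 10 of the 12 largest falls, all without overlap, were those of the growth factor gene Fgf16 (-4.33 ± 0.32), the prolactin receptor gene Prlr (-4.15 ± 0.36), the B cell coreceptor gene Cd72 (-4.11 ± 0.28), the lymphoid transcription factor gene Ikzf3 (-3.98 ± 0.23), the orphan receptor gene Gpr139 (-3.66 ± 0.47), the cytochrome P450 gene Cyp2s1 (-3.15 ± 0.17), the proteoglycan gene Impg1 (-3.12 ± 0.24), the matrix gene Adamtsl4 (-2.96 ± 0.15), the potassium channel gene Kcnj13 (-2.82 ± 0.37) and the organic cation transporter gene Slc22a3 (-2.77 ± 0.14). Their adjusted p-values ran from 1.36e-11 (Adamtsl4) to 2.1e-05 (Kcnj13). Fgf16 and Ikzf3 each had 13 reads over all MMI libraries, so their fold changes rest on few reads. Prlr and Kcnj13 are choroid plexus genes, described with that tissue below. Cd72 and Ikzf3 are best known from lymphocytes, and the defining B and T cell genes were low: Ms4a1 and Cd3e had at most 3 reads in any WT or MMI striatal library, Cd79a at most 4, and Cd79b at most 10 in WT and 11 in MMI. Of 11 lymphocyte genes listed 2 passed the filter on low counts, Cd72 and Cd4. Both were lower (-0.36 ± 0.09, adjusted p = 0.0034 for Cd4, with overlap). Microglia and macrophages can also express Cd4. The summed level of Cd72 and Cd4 was 90.32 to 136.5 CPM of library totals in WT striatum and 1.925 to 10.98 in WT cortex. Cd72 averaged 5.86 CPM in WT striatum, so most of this sum was Cd4. The sum was 80.74 to 104.6 in MMI, and 91.47 to 107.3 in the striatum of a second wild-type group, the controls of another line. With all 35 striatal libraries in the fit, 1 of these 2 genes was lower. The summed level of the microglial list differed less between the tissues, at 685.9 to 863.2 in WT striatum and 575 to 780.3 in WT cortex. The cell type behind the Cd4 reads was not tested.

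The largest rises were smaller than the largest falls. Slco2a1, which encodes a prostaglandin transporter, rose from 0.18–1.16 CPM (median 0.604) to 3.14–5.14 CPM (median 4.53) (2.65 ± 0.23, adjusted p = 1.78e-08). Ly75, an endocytic receptor best known from dendritic cells, rose from 1.26–3.51 CPM (median 2.42) to 7.9–15.8 CPM (median 12.6) (2.36 ± 0.16, adjusted p = 1.46e-09). Scn9a, the gene of the sodium channel Nav1.7, rose from 3.42–6.73 CPM (median 5.64) to 15.4–29.9 CPM (median 24.4) (2.13 ± 0.16, adjusted p = 1.5e-08). In all 3 the lowest MMI library lay above the highest WT library. The others were the amine oxidase gene Aoc3 (2.30 ± 0.20), the diacylglycerol kinase gene Dgkk (2.26 ± 0.24), the exchange factor gene Rasgrp4 (2.12 ± 0.23), Samd11 (2.04 ± 0.23), Stac (1.98 ± 0.22), and 4 interferon-stimulated genes, Ifi44 (2.22 ± 0.21), Oas1b (2.06 ± 0.27), Ddx60 (2.05 ± 0.27) and Ifit1 (1.97 ± 0.31). Their adjusted p-values ran from 1.68e-08 (Aoc3) to 0.000167 (Ifit1). Over all 7 WT libraries, Samd11 had 51 reads, Oas1b 54, Aoc3 61, Slco2a1 63, Stac 64, Ifi44 75 and Rasgrp4 84. The fold changes of these genes rest on few WT reads. Ddx60, Ly75, Dgkk, Ifit1 and Scn9a had 162 to 478.

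The largest losses in mean CPM, a measure that favours abundant and long transcripts, are given here for called genes without overlap, with mitochondrially encoded genes left out. Mobp, a myelin protein gene, went from 5088 ± 510.4 to 3648 ± 382 CPM (mean ± SD, n = 7), and Pde10a, the phosphodiesterase of striatal projection neurons, from 2009 ± 349 to 815 ± 157 CPM. Enpp2, whose product autotaxin makes lysophosphatidic acid, went from 1632 ± 385 to 444 ± 63.9 CPM. The sodium channel subunit gene Scn4b (1907 ± 241 to 868 ± 151 CPM), the calcium sensor gene Hpca (1606 ± 177 to 668 ± 44.4 CPM), the CaMKII inhibitor gene Camk2n1 (2068 ± 159 to 1192 ± 86.2 CPM), the calcium pump gene Atp2b1 (1446 ± 181 to 641 ± 85.4 CPM) and Nrgn completed these 8, and none overlapped between groups. The largest gains by the same rule were those of the noncoding RNA Meg3 (2339 ± 132 to 3394 ± 334 CPM), the prohormone processing enzyme gene Cpe (2799.8 ± 145 to 3662 ± 139 CPM), Hpcal4 (546 ± 47.1 to 1030.0 ± 85.6 CPM), the astrocytic glutamate transporter gene Slc1a3 (694 ± 68.1 to 1119 ± 85.5 CPM), Marcks (397 ± 34.8 to 609 ± 34.5 CPM), Gpm6a (1134 ± 40.1 to 1319 ± 105.3 CPM), Ptn (325 ± 27.9 to 501 ± 42.8 CPM) and Col6a1. Reads were unstranded, so Meg3 reads cannot be told from those of any overlapping transcript on the other strand.

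The retinoic acid genes did not move as a block. Of 17 tested, 4 were higher (23.5%) and 7 lower (41.2%), against 20.4% in each direction over all genes. Beside Aldh1a1, Rxrg and Rxrb, the binding protein gene Crabp2 fell (-1.77 ± 0.28, adjusted p = 3.52e-05), as did the dehydrogenase gene Rdh5 (-0.84 ± 0.20) and the receptor genes Rarb (-0.36 ± 0.09) and Rarg (-0.31 ± 0.10). Cyp26b1, which encodes the enzyme that breaks down retinoic acid, rose from 1.68–5.37 CPM (median 3.34) to 5.72–21.4 CPM (median 11.4) (1.71 ± 0.33, adjusted p = 0.000971). Crabp1, another binding protein gene, rose from 7.81–11.8 CPM (median 10.4) to 17.4–25.3 CPM (median 20.1) (1.04 ± 0.09, adjusted p = 3.48e-08), and Rdh10 (0.46 ± 0.09) rose less. The members not called were Aldh1a2, Dhrs3, Rbp4, Stra6, Rara and Rxra, with log2 changes of -0.24 to 0.33. Of 16 glucocorticoid-responsive genes, 4 were higher and 3 lower, near the background (8 higher with library totals alone). Hsd11b1, whose enzyme regenerates active glucocorticoid inside cells, fell from 10.6–14.1 CPM (median 12.8) to 1.83–3.64 CPM (median 3.41) (-2.07 ± 0.12, adjusted p = 1.17e-10). Sgk1 (-0.53 ± 0.07) and the receptor gene Nr3c1 (-0.21 ± 0.05) fell, and Zbtb16 (0.81 ± 0.18), Pdk4 (0.54 ± 0.07), Sult1a1 (0.84 ± 0.11) and Cdkn1a (0.25 ± 0.09) rose. Nr3c2, Fkbp5, Tsc22d3, Mt1, Mt2, Plin4, Nfkbia, Dusp1 and Per1 were not called (-0.23 to 0.52).

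Genes shared by the projection neurons of both pathways were lower in MMI. Of 30 tested, 26 were lower and none higher, 23 of them without overlap between groups (24 lower and 1 higher with library totals alone), and the median log2 change was -0.55. Over all genes 20.4% were lower and 8.62% lay below without overlap. Cnr1 (ENSMUSG00000044288, chromosome 4, 33924593 to 33948831), the CB1 cannabinoid receptor gene, fell most, from 397–627 CPM (median 462) to 78.7–101 CPM (median 93.6) (-2.44 ± 0.10, adjusted p = 1.58e-11). Rgs9, which shortens dopamine receptor signalling, fell from 578–740.2 CPM (median 643) to 247–372 CPM (median 330.5) (-1.05 ± 0.09, adjusted p = 3.3e-08). The highest MMI library stayed below the lowest WT library in both. Rasd2 (Rhes, -1.47 ± 0.09), Rgs4 (-1.42 ± 0.14), Pde10a (-1.30 ± 0.13), Scn4b (-1.13 ± 0.11), Rasgrp2 (-1.01 ± 0.08), Actn2 (-0.94 ± 0.09), Ano3 (-0.86 ± 0.11), the dopamine signalling integrator gene Ppp1r1b (DARPP-32, -0.66 ± 0.07) and the striatal phosphatase gene Ptpn5 (-0.59 ± 0.08) followed. Foxp2, Meis2, Arpp21 and Gad2 were the 4 not called (-0.08 to 0.13). With all 35 striatal libraries in the fit, 19 of the 30 were lower.

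Markers of a single pathway gave fewer separated groups than the shared genes. Of 9 direct pathway genes 1 lay below and 1 above without overlap, and of 6 indirect pathway genes 2 lay below. Over all genes tested 8.62% lay below and 6.88% above, so the direct pathway counts are near the background. Of the 9 direct pathway genes, 4 were lower and 2 higher: Drd1 went from 252–340.2 CPM (median 298) to 195–271 CPM (median 241), with overlap (-0.33 ± 0.08, adjusted p = 0.00179), and the muscarinic receptor gene Chrm4 fell without overlap (-0.60 ± 0.08, adjusted p = 6.22e-06). Pdyn, the gene of the opioid precursor prodynorphin, rose from 103–158 CPM (median 121) to 160.0–201 CPM (median 188) (0.55 ± 0.08, adjusted p = 2.62e-05), while Tac1, the gene of substance P, measured 0.10 ± 0.07, adjusted p = 0.31. Sfxn1 (-0.24 ± 0.07), Slc35d3 (-0.28 ± 0.07) and Ebf1 (0.20 ± 0.07) were the other calls. Of 6 indirect pathway genes, 4 were lower and none higher: Drd2 fell from 151–211 CPM (median 166) to 87.5–117 CPM (median 111) (-0.71 ± 0.08, adjusted p = 3.22e-06), and the adenosine receptor gene Adora2a from 436–557 CPM (median 489.6) to 291–373 CPM (median 335) (-0.57 ± 0.06, adjusted p = 5.09e-07). Gpr6 (-0.43 ± 0.08) and the enkephalin gene Penk (-0.25 ± 0.07) fell by less, with overlapping groups in both. These calls rest on the spread of the 14 libraries, since with all 35 striatal libraries in the fit the counts of lower genes were 2 in the direct and 0 in the indirect list. In the compartments of the striatum, 3 of 6 striosome genes were lower, led by Kremen1 (-0.92 ± 0.09, adjusted p = 1.38e-07), and 1 was higher. Of 5 matrix genes, Gda (0.62 ± 0.05, adjusted p = 1.31e-08), Calb1 (0.52 ± 0.13, adjusted p = 0.00488) and Id4 (0.35 ± 0.07) rose while Rasgrp2 and Epha4 (-0.24 ± 0.07) fell.

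Interneuron genes differed by class. Of 10 genes of parvalbumin interneurons, the fast-spiking cells of the striatum, 6 were lower and 3 higher. Kcng4, a potassium channel subunit gene of these cells, fell from 4.96–10.4 CPM (median 7.54) to 0.406–2.11 CPM (median 1.3) (-2.49 ± 0.26, adjusted p = 9.48e-07). Pvalb, the calcium-binding protein gene that names them, went from 23.8–59.9 CPM (median 42.1) to 9.87–30.4 CPM (median 17.98), with overlap (-1.20 ± 0.28, adjusted p = 0.00419). Cplx1 (-0.57 ± 0.05, adjusted p = 5.8e-08), Pthlh (-0.65 ± 0.13), Syt2 (-0.51 ± 0.12) and Kcnc1 (-0.43 ± 0.10) fell as well. Lhx6, the transcription factor gene that sets these cells' lineage, rose from 18.3–23.6 CPM (median 20.7) to 25.1–30.9 CPM (median 25.97) (0.41 ± 0.07, adjusted p = 6.61e-05), as did Tac2 (1.46 ± 0.29, adjusted p = 0.000562) and Erbb4 (0.20 ± 0.05). Of 9 genes of somatostatin, neuropeptide Y and other interneurons (4 higher with library totals alone), Chodl alone was called (0.72 ± 0.17, adjusted p = 0.00175). Sst, Npy, Nos1, Elfn1, Calb2, Vip, Cck and Crhbp ranged over -0.42 to 0.46. Among 8 cholinergic genes, Slc17a8 (VGLUT3) fell without overlap, from 16.9–22.9 CPM (median 19.7) to 6.87–11.2 CPM (median 9.89) (-1.11 ± 0.10, adjusted p = 3.99e-08). Chat, the acetylcholine synthesis gene, fell with overlap (-0.63 ± 0.16, adjusted p = 0.00596), and Lhx8 rose (0.50 ± 0.16, adjusted p = 0.0161).

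Genes of electrical signalling were mostly lower. Of 40 tested potassium channel genes, 22 were lower (55%) and 6 higher (15%). Of 19 genes that bear calcium channel names, the Cacng genes among them, 11 were lower (57.9%) and 2 higher (10.5%). Over all genes 20.4% were called in each direction. Kcna1, the gene of an axonal channel that limits firing, fell from 231–317 CPM (median 287) to 108–155 CPM (median 137) (-1.07 ± 0.08, adjusted p = 2.08e-09), and Kcnab1, a subunit gene of the same channel family, from 503–647 CPM (median 514) to 226–313 CPM (median 275) (-1.07 ± 0.08, adjusted p = 2.69e-09). Kcns3 (-1.23 ± 0.20), Kcns2 (-0.78 ± 0.09), Kcng1 (-0.92 ± 0.11) and Kcnh7 (-0.89 ± 0.19) fell too, while Kcng3 (0.83 ± 0.25), Kcna5 (0.57 ± 0.08), Kcng2 (0.55 ± 0.15) and Kcnd1 (0.32 ± 0.08) rose. In the calcium channel list, Cacna1i (-0.87 ± 0.11), Cacng2 (stargazin, -0.76 ± 0.06), Cacng3 (-0.56 ± 0.08) and Cacnb3 (-0.53 ± 0.06) fell, and the T-type channel gene Cacna1g (0.52 ± 0.17) and the N-type channel gene Cacna1b (0.33 ± 0.06) rose. Of 9 sodium channel genes 5 were lower, among them Scn1a (-0.55 ± 0.09), Scn8a (-0.32 ± 0.06) and Scn2b (-0.50 ± 0.05), and 2 higher, Scn9a and Scn3b (0.16 ± 0.06). Neurofilament and other cytoskeletal genes counted 10 lower and 2 higher of 20, with Nefl (-0.85 ± 0.06, adjusted p = 1.14e-09), Nefm, Nefh, Ina (-0.60 ± 0.07) and Tuba4a (-0.91 ± 0.05, adjusted p = 1.18e-10) lower and the immature neuron gene Dcx (0.38 ± 0.09) higher.

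Receptor and neuropeptide genes were called about as often as other genes. Of 24 glutamate receptor genes, 7 were lower and 3 higher, counts near the background, and with library totals alone the split turned to 6 lower and 9 higher. Grm8 (-1.14 ± 0.16, adjusted p = 1.88e-05) and Grin2a, the NMDA receptor subunit gene of mature synapses (-0.83 ± 0.24, adjusted p = 0.0101), fell, and Grin3a, a juvenile NMDA receptor subunit gene (0.56 ± 0.09), rose. Among 16 GABA receptor genes, Gabra5 rose from 25.6–33.1 CPM (median 28.00) to 52.3–57.9 CPM (median 54.3) (0.91 ± 0.06, adjusted p = 1.61e-10) and Gabrq from 0.698–1.28 CPM (median 0.808) to 1.96–5.01 CPM (median 2.65) (1.74 ± 0.22, adjusted p = 3.08e-06), with no overlap in either. Gabrg1 rose too (0.78 ± 0.13), while Gabra4 (-0.46 ± 0.08, adjusted p = 9.29e-05), Gabbr2 (-0.61 ± 0.11), Gabrd (-0.34 ± 0.06), Gabra2 (-0.32 ± 0.11) and Gabbr1 (-0.11 ± 0.04) fell. With library totals alone these counts were 5 higher and 3 lower, and without WT 3, WT 6 and MMI 1 they were 3 and 3. Of 19 neuropeptide genes 4 were lower and 4 higher, again near the background (8 higher with library totals alone): Nts, the neurotensin gene, fell from 14.5–23.2 CPM (median 19.2) to 2.23–5.25 CPM (median 2.86) (-2.59 ± 0.16, adjusted p = 4.86e-10), with Pnoc (-1.14 ± 0.28), Cbln2 (-0.69 ± 0.22) and Penk, and Cartpt (0.87 ± 0.20), Cbln4 (0.63 ± 0.20), Tac2 and Pdyn rose.

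Calcium and calmodulin signalling genes of the postsynapse counted 13 lower and 1 higher of 22. Pcp4, a calmodulin regulator gene, fell from 183–250.1 CPM (median 212) to 57.2–80.2 CPM (median 70.8) (-1.65 ± 0.08, adjusted p = 1.58e-11), and the scaffold gene Homer1 from 261–394 CPM (median 312) to 109–174 CPM (median 141) (-1.10 ± 0.10, adjusted p = 5.85e-07). The calmodulin genes Calm2 (-0.60 ± 0.06) and Calm3 (-0.21 ± 0.05) fell with Nrgn and Pcp4, the regulators of their product, and Camk2d (0.41 ± 0.09) rose. Of 22 immediate early genes, which neuronal activity induces, 12 were lower and none higher (7 lower with all 35 striatal libraries in the fit). Their summed level was 980 to 1559 CPM of library totals in WT and 654 to 1132 in MMI. In the striatum of a second wild-type group of the series, the controls of another line, it was 676 to 958. Arc fell from 156–313 CPM (median 269) to 49.4–129 CPM (median 113) (-1.33 ± 0.22, adjusted p = 0.000359) and Ier5 from 60.9–79.8 CPM (median 71.2) to 24.7–35.2 CPM (median 29.99) (-1.19 ± 0.08, adjusted p = 1e-09), without overlap. Fos (-0.70 ± 0.24, adjusted p = 0.0338) and Egr3 (-0.66 ± 0.19) fell with overlap. Synaptic vesicle genes were mixed, with 13 lower (37.1%) and 8 higher (22.9%) of 35, from Cplx3 (-1.68 ± 0.40) to Syt10 (1.55 ± 0.15). Their median turned from -0.07 to 0.02 with library totals alone.

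The respiratory chain was lower as a set of small changes. Of 78 nuclear-encoded subunit genes tested, 71 were lower and none higher, 48 of them with every MMI library below every WT library, against 20.4% lower and 8.62% below over all genes. By complex, 33 of 36 genes of complex I, 4 of 4 of complex II, 9 of 9 of complex III, 11 of 13 of complex IV and 14 of 16 of ATP synthase were lower. The median over the 78 was -0.28, so the typical loss was below 1.5-fold. Ndufa1, a complex I subunit gene on chromosome X, fell most, from 51.6–64.9 CPM (median 56.5) to 30.5–39.05 CPM (median 34.2) (-0.75 ± 0.06, adjusted p = 7.62e-09). Cox5a of complex IV went from 67.3–80.8 CPM (median 79.4) to 48.99–53.4 CPM (median 50.8) (-0.57 ± 0.05, adjusted p = 1.98e-08), Uqcr10 of complex III from 63.8–77.3 CPM (median 73.7) to 47.6–58.6 CPM (median 50.01) (-0.50 ± 0.05, adjusted p = 3.49e-07), and Atp5b of ATP synthase from 1139–1223 CPM (median 1173) to 871–939 CPM (median 898) (-0.38 ± 0.04, adjusted p = 2.2e-07). Sdha of complex II changed least of these examples (-0.14 ± 0.04, adjusted p = 0.00419). With library totals alone 55 of the 78 were lower and none higher, and complex II kept 1 of its 4. The share of reads from mitochondrial genes overlapped between the groups, at 4.66% to 5.57% in WT and 4.25% to 5.45% in MMI (exact permutation test, two-sided, p = 0.283). Under TMM scaling 5 of 7 mitochondrially encoded genes tested were lower, such as mt-Nd2 (-0.34 ± 0.06, adjusted p = 0.000225), and with library totals alone 2 were.

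**Figure D3:**
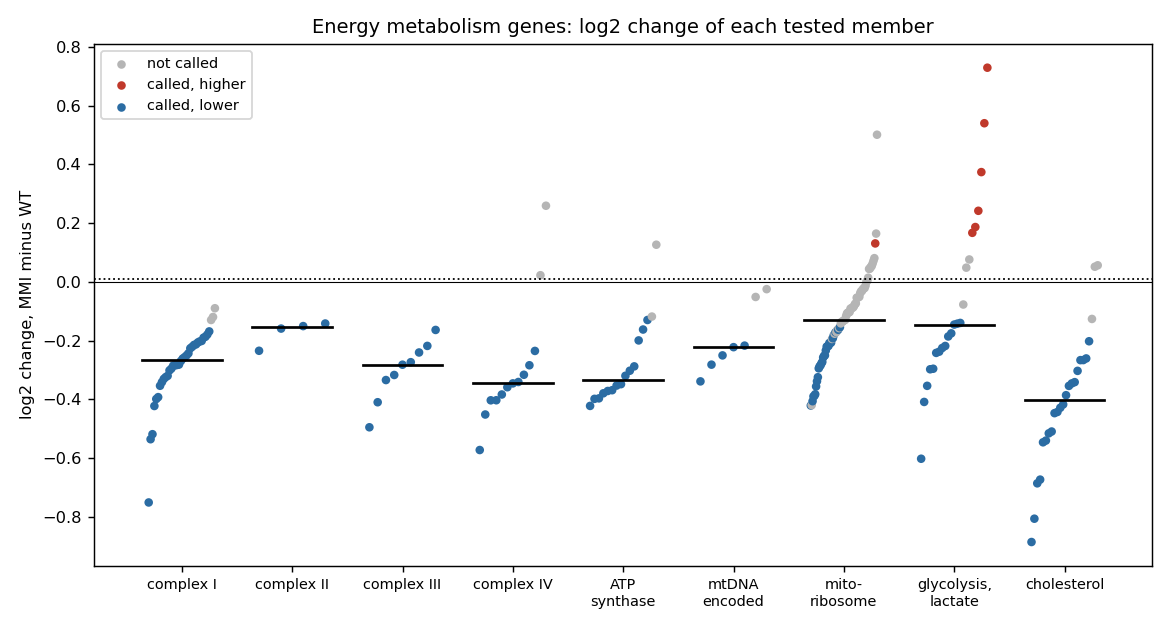
Log2 change, MMI minus WT (y axis), of each tested member of 9 energy metabolism lists, with the median of each list as a bar and that of all genes tested as a dotted line. The 5 respiratory lists lie almost wholly below 0, and glycolysis and lactate genes lie on both sides.

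Other metabolic genes followed in part. Of 76 mitochondrial ribosomal protein genes, 28 were lower and 1 higher, and with library totals alone 10 were lower and 7 higher. Of 24 cholesterol synthesis and uptake genes, 21 were lower and none higher, with a median of -0.40. Insig1, the sterol sensor gene, fell from 75.6–94.4 CPM (median 83.1) to 39.1–59.1 CPM (median 51.2) (-0.81 ± 0.08, adjusted p = 4.17e-07). Srebf2 (-0.55 ± 0.05, adjusted p = 3.98e-08), which encodes the transcription factor that drives the pathway, Msmo1 (-0.69 ± 0.07), Cyp51 (-0.67 ± 0.08) and Sqle (-0.52 ± 0.06) fell with it. Glycolysis and lactate genes counted 14 lower and 6 higher of 23 (8 and 7 with library totals alone): Ldhb, the lactate dehydrogenase subunit gene of oxidative cells, fell (-0.41 ± 0.04, adjusted p = 1.02e-07). Slc16a1, the lactate and ketone transporter gene MCT1, rose from 73.8–106 CPM (median 81.1) to 129.6–156 CPM (median 144) (0.73 ± 0.08, adjusted p = 1.2e-06), and the glucose transporter gene Slc2a3 rose (0.37 ± 0.05). Of 20 ketone body and fatty acid genes (7 higher and 2 lower with library totals alone), 4 were higher, among them Acads (0.45 ± 0.12), and 4 lower, led by the peroxisomal transporter gene Abcd2 and with Oxct1, which encodes the enzyme that lets cells burn ketone bodies (-0.31 ± 0.06). Each count is 20% of that list, near the 20.4% in each direction over all genes. Heat shock genes were lower in 16 of 18, with the near-identical Hspa1b (-1.82 ± 0.38) and Hspa1a (-0.92 ± 0.31) first, Hspa8 from 124–171 CPM (median 149) to 100.3–122 CPM (median 106) (-0.43 ± 0.07, adjusted p = 4.42e-05), Hsph1 (-0.61 ± 0.10) and Hspa4 (-0.47 ± 0.06), and Hspa2 rose (0.41 ± 0.06). Of 19 clock genes (10 higher and 3 lower with library totals alone), 6 were higher with Per2 first (0.67 ± 0.09, adjusted p = 1.93e-05) and 5 lower, among them Arntl (-0.40 ± 0.07, adjusted p = 7.72e-05). These are 31.6% and 26.3% of the clock list, against 20.4% in each direction over all genes. Cytosolic ribosomal protein genes, of which 15 of 71 were higher and 2 lower, share reads with many pseudogenes and hold only reads mapped to one place, so their counts are uncertain, and 29 were higher with library totals alone and 4 without WT 3, WT 6 and MMI 1.

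Glial lists differed in direction. Of 24 genes of myelin and mature oligodendrocytes, 14 were lower and none higher. Mobp fell without overlap (-0.48 ± 0.07, adjusted p = 3.02e-05), as did Trf, the transferrin gene (-0.70 ± 0.10), while Mbp and Mag (above) and Cnp (-0.16 ± 0.07, adjusted p = 0.0604) were not called. With all 35 striatal libraries in the fit 7 of the list were lower. Aspa, the gene of aspartoacylase, which frees acetate for myelin lipids, fell from 44.5–67.7 CPM (median 47.7) to 22.3–34.1 CPM (median 25.4) (-1.04 ± 0.13, adjusted p = 8.39e-06), Klk6 from 3.75–6.67 CPM (median 4.88) to 0.975–2.75 CPM (median 1.82) (-1.50 ± 0.18, adjusted p = 1.87e-06), and Hapln2, a link protein gene of the nodes of Ranvier, from 25.6–43.8 CPM (median 35.95) to 15.4–20.9 CPM (median 19.3) (-0.93 ± 0.10, adjusted p = 9.48e-07). Genes of oligodendrocyte precursors moved the other way, with 8 of 15 higher and 2 lower. Gpr17, a receptor gene of cells about to differentiate, rose from 233–307 CPM (median 261) to 317–455 CPM (median 369.8) (0.52 ± 0.07, adjusted p = 5.99e-06), Pdgfra from 81.5–104 CPM (median 89.8) to 106–156 CPM (median 116) (0.42 ± 0.08, adjusted p = 0.000423), and Matn4 (0.71 ± 0.09, adjusted p = 1.94e-06) and Cspg4 (0.54 ± 0.08) rose too. Olig1 (-0.30 ± 0.08) and Cacng4 (-0.44 ± 0.07) were the 2 that fell.

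Among 18 astrocyte genes, 7 were lower (38.9%) and 3 higher (16.7%), against 20.4% in each direction over all genes. Kcnj10, the gene of the channel that clears potassium, fell from 255–364 CPM (median 304) to 96.01–137 CPM (median 114) (-1.44 ± 0.09, adjusted p = 6.73e-10), and the sodium pump gene Atp1b2 (-0.68 ± 0.06, adjusted p = 9.78e-09), the neurotensin receptor gene Ntsr2 (-0.76 ± 0.06) and the bicarbonate transporter gene Slc4a4 (-0.83 ± 0.08) fell with it. Slc1a3, the glutamate transporter GLAST, rose (0.69 ± 0.06, adjusted p = 4.23e-08). Slc1a2, the other astrocytic glutamate transporter gene, measured -0.12 ± 0.06, adjusted p = 0.118, and Gfap and Aqp4 were not called (-0.11 to -0.03). Microglial genes were higher by small amounts, 14 of 17 with none lower and a median of 0.32. P2ry12, the receptor gene of resting microglia, rose from 51.4–57.7 CPM (median 56.4) to 67.2–75.01 CPM (median 69.98) (0.35 ± 0.04, adjusted p = 1.48e-06), and Cx3cr1 from 70.3–84.6 CPM (median 80.2) to 97.3–118 CPM (median 104) (0.40 ± 0.05, adjusted p = 3.21e-06). The summed level of the 17 genes was 709 to 884 CPM in WT and 908 to 1092 in MMI.

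**Figure D4:**
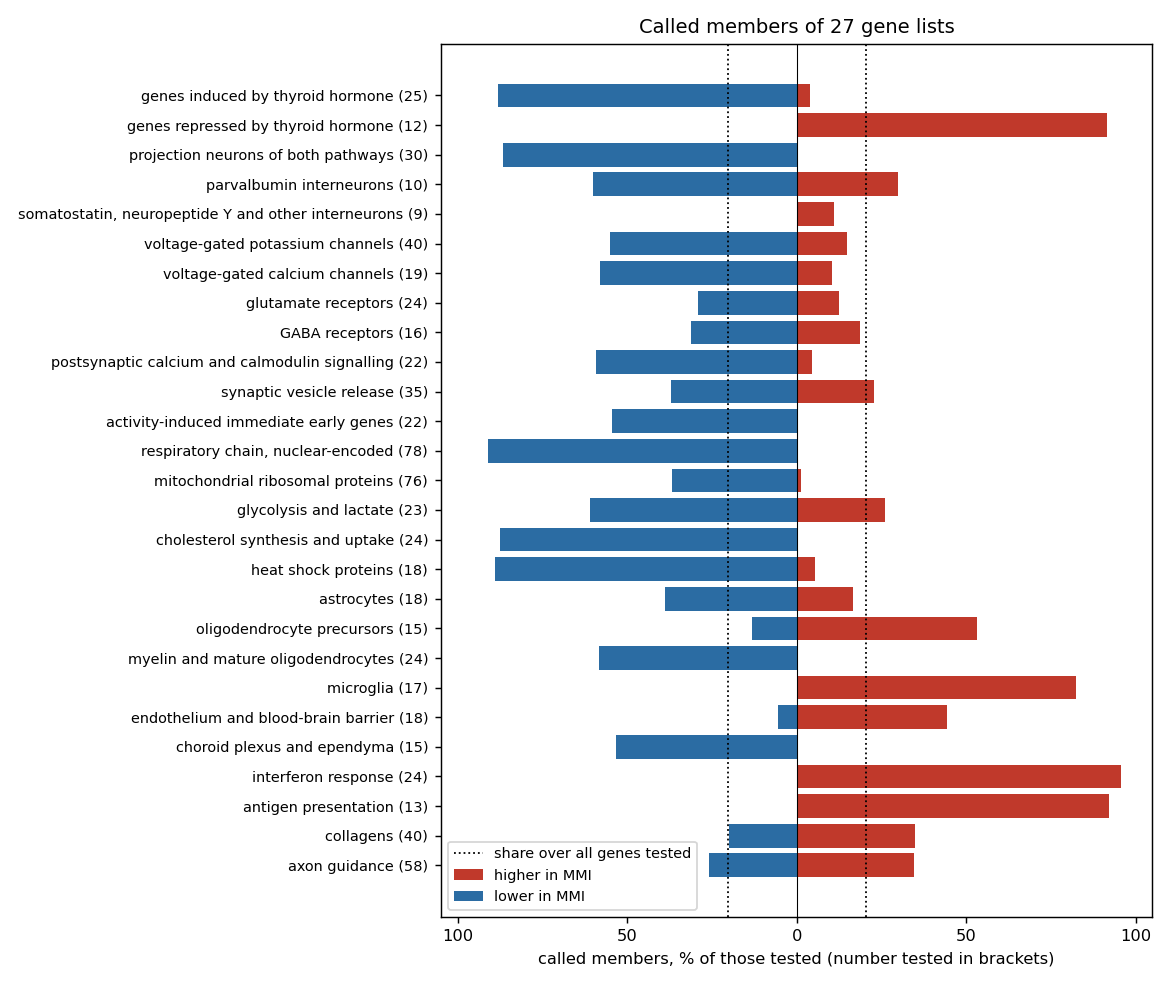
Share of tested members called higher (red, to the right) or lower (blue, to the left) in MMI for 27 gene lists, in percent of the members tested, whose number stands in brackets. Dotted lines mark the 20.4% called in each direction over all genes; the interferon response list reaches 95.8% higher and the nuclear-encoded respiratory chain 91% lower.

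Vessel genes were higher in part: 8 of 18 endothelial genes were higher and 1 lower. Vwf, a clotting factor gene of endothelium, rose from 16.2–21.1 CPM (median 19.2) to 23.7–43.9 CPM (median 35.2) (0.84 ± 0.11, adjusted p = 6.19e-06), and Kdr, the main VEGF receptor gene, from 15.5–23.6 CPM (median 19.8) to 22.03–39.04 CPM (median 32.3), with overlap (0.68 ± 0.11, adjusted p = 0.000137). Cldn5, a tight junction gene of the barrier, rose with overlap as well (0.57 ± 0.14, adjusted p = 0.00399). Genes of mural and leptomeningeal cells were mixed, with 5 of 18 higher, such as Myh11 (0.70 ± 0.16), and 3 lower, such as Lum (-0.88 ± 0.29). These shares, 27.8% and 16.7%, are near the 20.4% in each direction over all genes. Without MMI 2 and MMI 7, 1 of the list was lower. Red cell genes were lower: all 4 globin genes and Alas2, the haem synthesis gene of red cell precursors, fell, for instance Hba-a2 from 16.1–37.7 CPM (median 18.9) to 5.31–8.82 CPM (median 6.56) (-1.81 ± 0.21, adjusted p = 6.21e-06) and Alas2 from 5.74–13.7 CPM (median 6.45) to 2.29–5.64 CPM (median 3.69) (-1.19 ± 0.26, adjusted p = 0.00157). Globin reads made up 0.0119% to 0.0283% of gene counts in WT and 0.00479% to 0.00812% in MMI, without overlap (exact permutation test, two-sided, p = 0.000583, the smallest possible here, adjusted over 6 read categories to 0.00117). Globin genes have near-identical copies, so single globin genes are less certain than their sum.

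Choroid plexus and ependymal genes counted 8 lower of 15 and none higher, and 4 lower with the replicate number as a block in the fit. The summed level of the 15 genes was 3392 to 7720.0 CPM in WT and 445 to 4259 in MMI, most of it Ttr, whose change was not called (-0.74 ± 0.72, adjusted p = 0.445). In CPM of library totals this sum was 3327 to 7517 in WT, 455 to 4417 in MMI and 1440 to 5166 in the striatum of the second wild-type group. Prlr fell from 8.56–32.6 CPM (median 22.7) to 0.203–1.86 CPM (median 1.51), and Enpp2 from 981–2053 CPM (median 1609) to 337–515 CPM (median 455) (-1.88 ± 0.15, adjusted p = 3.29e-07). Enpp2 thus kept at least 337 CPM also in MMI 2 and MMI 7, where Ttr was scarce. The cell type behind the Enpp2 reads was not tested. Without MMI 2 and MMI 7, the libraries poor in this tissue, 8 of the 15 genes were again lower, and Ttr measured -0.27, adjusted p = 0.352, while Prlr (-3.83, adjusted p = 4.14e-06), Kcnj13 (-2.43, adjusted p = 1.38e-06) and Enpp2 (-1.77, adjusted p = 4.14e-06) were still lower. Kl, the klotho gene, went from 30.1–109 CPM (median 70.99) to 1.77–42.7 CPM (median 29.8) (-1.59 ± 0.47, adjusted p = 0.0169), and Folr1 (-1.43 ± 0.51), Sostdc1 (-1.44 ± 0.44), Slc4a5 (-1.39 ± 0.51) and Kcne2 (-1.57 ± 0.46) were called alike. Those 5 lost their calls without WT 3, WT 6 and MMI 1, where 3 of the 15 remained lower. The part of these libraries' tissue makeup in the changes was not tested. Foxj1, which drives the cilia of ependymal cells, fell without overlap (-0.72 ± 0.08, adjusted p = 6.37e-07).

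Interferon-stimulated genes were higher in MMI. Of 24 tested, 23 were higher and none lower, 19 with no overlap between groups, against 20.4% higher and 6.88% above over all genes, and the median log2 change was 1.29. Irf7, an amplifier of the response, rose from 1.49–5.99 CPM (median 2.87) to 9.43–17.2 CPM (median 12.5) (1.69 ± 0.25, adjusted p = 8.53e-05). Isg15, the gene of a ubiquitin-like protein, rose from 1.35–3.24 CPM (median 2.68) to 4.74–8.52 CPM (median 6.8) (1.499 ± 0.17, adjusted p = 1.09e-06), and Ifit1, an antiviral RNA-binding protein gene, from 1.36–7.61 CPM (median 2.68) to 9.77–20.2 CPM (median 11.1) (1.97 ± 0.31, adjusted p = 0.000167). All MMI libraries lay above all WT libraries in these 3 genes. Ifit3 (1.63 ± 0.29, adjusted p = 0.000579), Bst2 (0.95 ± 0.17, adjusted p = 0.000342), Irf9 (0.86 ± 0.08, adjusted p = 2.58e-08), Oas1a (2.16 ± 0.25), Oasl2 (1.73 ± 0.24), Rtp4 (1.46 ± 0.16) and Parp14 (1.30 ± 0.12) followed, Stat2 rose least (0.39 ± 0.07), and Ifi27 was not called (0.27 ± 0.13, adjusted p = 0.117). Over the 21 interferon and antigen presentation genes named here, the median log2 level relative to the WT mean was -0.28 to 0.34 in the WT libraries and 1.01 to 1.39 in the MMI libraries. WT 1 and WT 2 were the WT libraries with the highest levels. The striatum of a second wild-type group of the series, the controls of another line, had a summed level of the 24 genes of 128 to 154 CPM of library totals, against 126 to 236 in WT and 351 to 479 in MMI.

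**Figure D5:**
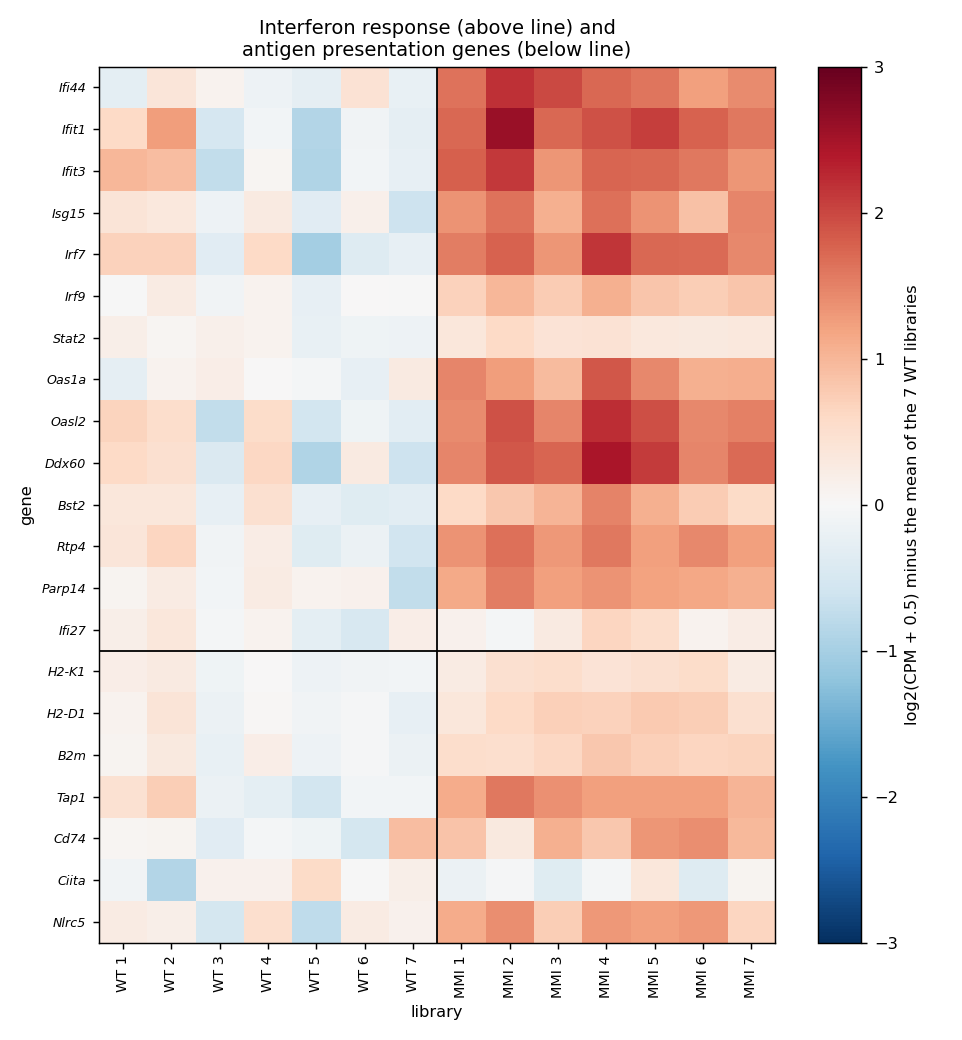
Heat map of the 21 interferon response and antigen presentation genes named in the text (rows) in the 14 libraries (columns), as log2(CPM + 0.5) minus the mean of the 7 WT libraries, from -3 (blue) to 3 (red). Of the 147 MMI values, 141 are above 0.

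Of 13 antigen presentation genes, 12 were higher and none lower, with a median of 0.71. Tap1, a peptide transporter gene, rose from 2.2–6.07 CPM (median 3.23) to 7.48–11.4 CPM (median 8.78) (1.33 ± 0.17, adjusted p = 5.66e-06), B2m, the gene of the shared light chain, from 57.5–82.1 CPM (median 65.7) to 96.04–117 CPM (median 105.0) (0.64 ± 0.07, adjusted p = 1.31e-06), and Nlrc5, the activator of class I genes, from 0.388–1.66 CPM (median 1.2) to 1.87–3.45 CPM (median 3.07) (1.45 ± 0.24, adjusted p = 6.01e-05). The class I heavy chain genes H2-D1 (0.63 ± 0.09, adjusted p = 1.72e-05) and H2-K1 (0.43 ± 0.07) rose with overlap, and they resemble other class I genes closely enough for reads to be split between them. Cd74, the class II chaperone gene, rose (1.10 ± 0.23, adjusted p = 0.000784) and Ciita, the class II activator gene, measured -0.21 ± 0.25, adjusted p = 0.542. Microglial genes, given above, rose too, with a median of 0.32, and their part in these results was not tested.

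Most of the interferon genes with a promoter in the RefSeq table held one sequence element. The core of the interferon-stimulated response element, searched as TTTC, any 2 bases and TTTC on both strands from 250 bases before to 50 after each RefSeq start (GRCm38.p6), was present in 12 of the 18 interferon genes with a promoter in the table (66.7%). Among the 11417 tested genes with a promoter it was present in 3.6%, with 4.89% of called higher and 2.89% of called lower genes. Of the promoters of these members, 4 are printed to show the element, in capitals, in its place, each 5′ to 3′ on the strand of its gene.
Ifit1, chr19:34640639-34640938, plus strand: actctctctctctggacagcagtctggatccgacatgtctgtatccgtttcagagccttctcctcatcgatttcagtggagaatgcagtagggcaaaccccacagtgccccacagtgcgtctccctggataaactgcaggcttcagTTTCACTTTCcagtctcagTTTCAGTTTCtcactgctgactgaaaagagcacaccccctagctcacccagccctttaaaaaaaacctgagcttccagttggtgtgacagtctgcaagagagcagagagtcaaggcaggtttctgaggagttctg
Ifit3, chr19:34583279-34583578, plus strand: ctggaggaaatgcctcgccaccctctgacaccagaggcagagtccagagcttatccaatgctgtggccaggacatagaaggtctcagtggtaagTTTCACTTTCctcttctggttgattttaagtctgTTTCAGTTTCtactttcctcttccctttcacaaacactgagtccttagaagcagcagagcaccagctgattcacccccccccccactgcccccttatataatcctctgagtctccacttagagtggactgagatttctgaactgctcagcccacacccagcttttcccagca
Isg15, chr4:156200769-156201068, minus strand: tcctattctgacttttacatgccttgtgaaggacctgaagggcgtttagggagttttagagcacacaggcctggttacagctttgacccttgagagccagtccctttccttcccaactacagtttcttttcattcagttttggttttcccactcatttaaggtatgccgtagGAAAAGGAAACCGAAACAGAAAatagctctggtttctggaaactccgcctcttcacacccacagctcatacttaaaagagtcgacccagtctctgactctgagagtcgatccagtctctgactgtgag
Bst2, chr8:71537423-71537722, minus strand: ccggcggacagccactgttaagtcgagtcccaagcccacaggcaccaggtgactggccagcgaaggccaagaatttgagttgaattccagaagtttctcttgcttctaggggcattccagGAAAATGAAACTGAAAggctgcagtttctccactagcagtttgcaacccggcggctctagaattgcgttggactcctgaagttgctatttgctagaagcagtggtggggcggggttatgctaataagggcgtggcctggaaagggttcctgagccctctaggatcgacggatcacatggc
In Ifit1 and Ifit3 the element reads tttcactttc and tttcagtttc, 104 and 85 bases before the start in Ifit1 and 156 and 122 in Ifit3. In Isg15 and Bst2 it lies on the other strand, in 3 overlapping copies 78, 72 and 66 bases before the start of Isg15 and in 2 overlapping copies 130 and 124 bases before that of Bst2. These letters are a match and not a measured site. The half-site of thyroid hormone receptors, searched as AGGTCA on both strands, was present in 14.8% of the same promoters, in 17.1% of called lower and 13.1% of called higher genes, and in 3 of the 15 hormone-induced, 0 of the 9 hormone-repressed, 3 of the 18 interferon and 3 of the 9 antigen presentation genes with a promoter.

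Matrix and guidance genes went both ways. Of 40 collagen genes, 14 were higher (35%) and 8 lower (20%), against 20.4% in each direction over all genes. Beside the type VI chains, Col28a1 (1.45 ± 0.24), Col5a1 (1.08 ± 0.36), Col5a2 (0.99 ± 0.11), Col23a1 (0.93 ± 0.12) and Col16a1 (0.90 ± 0.10) rose, and Col8a1 (-1.54 ± 0.45), Col8a2 (-1.16 ± 0.30), Col11a2 (-1.12 ± 0.09) and Col17a1 (-1.09 ± 0.15) fell. The 8 lower became 5 without WT 3 or with no filter on low counts, and 4 without WT 3, WT 6 and MMI 1. Of 13 genes of perineuronal nets, the coats of interneurons, 3 were higher and 3 lower (23.1% each, near the background), and 7 were not called. The link protein genes split: Hapln1 (0.67 ± 0.06, adjusted p = 8.55e-08) and Hapln3 (0.69 ± 0.18) rose, and Hapln4 (-0.98 ± 0.20, adjusted p = 0.00147) and Hapln2 (-0.93 ± 0.10), which also stands in the oligodendrocyte list, fell. Matrix protease genes counted 11 higher (34.4%), such as Mmp25 (1.67 ± 0.23) and Adamtsl3 (1.13 ± 0.19), and 9 lower (28.1%), such as Adamts2 (-1.13 ± 0.14), of 32 (5 lower with library totals alone). Of 58 axon guidance genes, 20 were higher (34.5%) and 15 lower (25.9%). Epha8 (0.90 ± 0.06, adjusted p = 1.07e-09), Plxna3 (0.92 ± 0.10), Plxnc1 (0.87 ± 0.09), Epha5 (0.68 ± 0.07) and Robo1 (0.55 ± 0.09) rose, and Ntn4 (-0.91 ± 0.11), Ntng1 (-0.84 ± 0.10), Sema3c (-0.92 ± 0.16) and Slit3 (-0.64 ± 0.15) fell beside Robo3 and Sema7a. With all 35 libraries in the fit these were 12 higher and 10 lower, and with library totals alone 27 and 9. Among insulin-like growth factor genes 2 binding proteins moved apart. Igfbp3 rose from 10.2–17.1 CPM (median 15.03) to 29.7–59.2 CPM (median 42.8) (1.72 ± 0.15, adjusted p = 4.13e-07). Igfbp2 fell from 37.6–84.3 CPM (median 53.7) to 7.59–33.4 CPM (median 32.03) (-1.18 ± 0.30, adjusted p = 0.00679). MMI 2 and MMI 7, the libraries poor in choroid plexus, were lowest, and without them it measured -0.88, adjusted p = 0.00147. Genes of immature neurons and progenitors counted 6 higher (33.3%), among them Hes5 (0.92 ± 0.15, adjusted p = 0.000115), and 2 lower (11.1%) of 18, and 3 were higher without WT 3, WT 6 and MMI 1.

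Markers of neighbouring regions were tested as well. Of 11 genes of cortical excitatory neurons, 1 was higher and 1 lower, and their summed level was 322 to 676 CPM in WT and 258 to 680.2 in MMI. Of 6 thalamic, pallidal and septal genes 2 were higher, Lef1 (0.72 ± 0.11) and Tcf7l2 (0.32 ± 0.12), and none lower; without WT 3, WT 6 and MMI 1, 1 was higher. Among the 3 dopamine neuron genes tested, Ddc rose (0.42 ± 0.10) and Slc18a2 fell (-0.33 ± 0.09). Of 19 neurotrophin and VEGF genes 4 were higher (21.1%) and 1 lower (5.26%), against 20.4% in each direction over all genes. The 4 Y-linked genes tested were not called, with 2 higher with library totals alone or without MMI 2 and MMI 7. With upper-quartile scaling, a stricter filter on low counts or the replicate number as a block, 1 was higher. All 14 libraries expressed Ddx3y, at 50.4 to 93.5 CPM of library totals, with at most 8 Xist reads. In the read categories, reads on no annotated gene were 8.003% to 8.76% of counted alignments in WT and 9.28% to 10.4% in MMI, without overlap (exact permutation test, two-sided, p = 0.000583, adjusted p = 0.00117). In the striatum of the second wild-type group they were 8.32% to 10.39%, a range that overlaps those of both WT and MMI. Ambiguous reads were 1.63% to 1.65% in WT and 1.55% to 1.59% in MMI, with the same p. Reads that aligned to more than one place were 27.6% to 30.1% in WT and 28.2% to 30.0% in MMI (exact permutation test, p = 0.573).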

How the data were processed

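RNA-seq libraries of striatum were prepared from 500 ng RNA with an unstranded TruSeq v2 kit and read as single 75-nt reads, per the labels' protocols. The authors deposited whole-number counts of reads per gene, 1 file a library, with 38293 Ensembl gene IDs and 5 closing lines of reads given to no gene, which stayed out of library sizes and tests. CASAVA, FastQC, Bowtie, TopHat, HTSeq and edgeR on GRCm38 are named, without versions, per the submitters' processing notes. Reads aligned to several places stand in a closing line of their own, per the files, so genes with near-identical copies may be undercounted.

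Symbols were matched by ID to GENCODE M21 on GRCm38 (36429 IDs matched, 1864 did not). The counts of the 14 libraries alone, 8984488 to 19076334 per library, were filtered with filterByExpr, scaled by TMM and tested with edgeR 4.0.16's robust quasi-likelihood test in R 4.3.3, with Benjamini-Hochberg adjustment over 15742 genes. SE was taken as the ratio of the log2 change to the root of its F statistic. The test was first tested on simulated data. DESeq2 1.42.0, other scalings, filters and samples in the fit were alternatives, with limma 3.58.1 as a dependency of edgeR. Shares of reads were compared with exact two-sided permutation tests. No pair of libraries within a group agreed within sampling noise (lowest chi-square per degree of freedom 3.27 over 42 pairs).

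Named genes were the 12 largest rises and 12 largest falls without overlap at 2 CPM or more, the 8 largest gains and 8 largest losses in CPM, up to 4 members of each list by smallest p in each direction, and all hormone system genes; other members named to complete a list, and Ms4a1, Cd79a, Cd79b and Cd3e, were chosen after their values were seen. The comparison, the lists and the members were chosen with earlier results of these data known. Promoters are RefSeq sequences of GRCm38.p6, present for 11417 tested genes. Some genes that this rule names are not reported here.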

Additional observations from a re-analysis of the deposited data

Results flagged for a closer look

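In each group of 7 libraries, the gap between the most extreme library and its nearest neighbour was divided by the group's range and compared with Dixon's 95% critical value for 7 values. Over the 330 named genes and the read categories, 672 groups were examined and 33 exceeded it, where chance gives about 1 in 20 groups. Each is given below as the CPM of that library and of its nearest neighbour.

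MMI 1 stood apart as the highest of its group in Calm3 (936 CPM against 854), Cbln2 (6.94 CPM against 4.29), Gls2 (5.06 CPM against 3.45), Grm8 (7.74 CPM against 5.14), Hba-a2 (8.82 CPM against 6.77), Kcnh7 (24.2 CPM against 16.7), Mt2 (70.7 CPM against 61.2), Sst (210.4 CPM against 171) and Vip (6.22 CPM against 2.5). MMI 1 stood apart as the lowest of its group in Cacng4 (135 CPM against 159). MMI 2 stood apart as the highest of its group in Crabp1 (25.3 CPM against 20.5), Ifit1 (20.1 CPM against 13.8), Odf4 (1.89 CPM against 1.39) and Rarg (15.7 CPM against 12.7). MMI 2 stood apart as the lowest of its group in Ntng1 (4.53 CPM against 6.03). MMI 6 stood apart as the highest of its group in Chodl (5.71 CPM against 3.97) and Cx3cr1 (118 CPM against 104.9). MMI 6 stood apart as the lowest of its group in Nfkbia (18.8 CPM against 23.7). MMI 7 stood apart as the highest of its group in Rbp4 (26.3 CPM against 10.99). MMI 7 stood apart as the lowest of its group in Ddx3y (49.2 CPM against 77.8) and Lef1 (6.24 CPM against 7.69). WT 1 stood apart as the highest of its group in Marcksl1 (199.9 CPM against 158) and Trf (34.7 CPM against 25.7). WT 2 stood apart as the highest of its group in Flywch2 (16.2 CPM against 12.6) and Rdh10 (18.9 CPM against 14.7). WT 2 stood apart as the lowest of its group in Ikzf3 (1.54 CPM against 2.04). WT 3 stood apart as the highest of its group in Col5a1 (17.02 CPM against 7.84). WT 3 stood apart as the lowest of its group in Arpp21 (1234 CPM against 1488). WT 5 stood apart as the highest of its group in Foxp2 (93.4 CPM against 85.5) and Rxrg (242 CPM against 167). WT 6 stood apart as the lowest of its group in Mamdc2 (1.4 CPM against 2.22). WT 7 stood apart as the highest of its group in Cd74 (4.04 CPM against 2.05). WT 7 stood apart as the lowest of its group in Parp14 (2.87 CPM against 4.83). MMI 1 is one of the 3 libraries with most Slc17a7, and MMI 2 and MMI 7 are the 2 with few choroid plexus transcripts; their part in these values was not tested.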

How the results depend on the processing

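The counts of 3219 higher and 3215 lower genes moved by more than 1.5 times under 2 settings. With library totals alone they were 5413 and 1951, where the TMM factors that differ between the groups are not applied, and when the change was tested against 1.5-fold they were 208 and 275. With the other settings they lay within 1.5 times: 3774 and 2785 with upper-quartile scaling, 3156 and 3259 with RLE scaling, 2960 and 3262 with no filter, 3261 and 3119 with the stricter filter, 2602 and 2736 with all 35 striatal libraries, and 3123 and 3361 with DESeq2. Leaving out 1 library at a time gave 2918 to 3325 higher and 2973 to 3342 lower genes. Settings chosen after seeing the data gave 2908 and 2940 without MMI 2 and MMI 7, and 2816 and 2823 without WT 3, WT 6 and MMI 1. With the replicate block the counts were 3448 and 3317. The labels give no pairing by these numbers. Of the 7 same-numbered pairs, 2 had a correlation of their deviations over 0.1 (range -0.143 to 0.154), which cannot exclude a shared batch. Of the 330 named genes, 85 changed their call or sign under some setting other than leaving out 1 library, and 33 when 1 library was left out. Without MMI 2 and MMI 7 the log2 changes with the other sign were Tbl1x -0.0074. With the stricter filter the log2 changes with the other sign were Ncor1 0.0031. With library totals alone the log2 changes with the other sign were Aqp4 0.0638, Arpp21 0.0443, Foxp2 0.0513, Meis2 0.022, Ncoa2 0.0443, Ncor1 0.098, Rara 0.0066, Rbp4 0.0034 and Tbl1xr1 0.0024. Without WT 3, WT 6 and MMI 1 the log2 changes with the other sign were Aqp4 0.0227, Ncoa2 0.0069, Ncor1 0.0416, Stra6 -0.0145 and Vip -0.0365. With no filter the log2 changes with the other sign were Tbl1x -0.0022. With the replicate block the log2 changes with the other sign were Ncor1 0.003. With upper-quartile scaling the log2 changes with the other sign were Ncor1 0.0283. Over the fits without 1 library, Aqp4 (-0.0748 to 0.0049), Ncor1 (-0.0423 to 0.0221), Tbl1x (-0.0017 to 0.0223) and Vip (-0.319 to 0.274) took both signs. None of these genes was called with all 14 libraries, and the cause was not tested. Depth limits genes with few reads, such as Fgf16 and Ikzf3 with 13 reads in all MMI libraries.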

Other observations

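Long noncoding RNAs and pseudogenes did not follow the even split of protein-coding genes, of which 2964 were higher and 3014 lower of 13950 tested. Of 696 tested genes annotated as antisense, lincRNA or processed transcript, 165 (23.7%) were higher and 48 (6.9%) lower, with a median log2 change of 0.18. With library totals alone these were 240 and 35. Reads were unstranded, so antisense genes cannot be told from the genes they overlap. Of 748 processed pseudogenes 35 were higher and 115 lower, and with library totals alone 97 and 59, so their direction turned with the scaling.

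Genes on chromosome X were higher more often than lower, 168 (27%) against 90 (14.4%) of 623 tested, while autosomal genes counted 3028 and 3094 of 14933. These became 254 and 52 on X and 5110 and 1879 on autosomes with library totals alone. Among protein-coding genes, the share called higher was 13.9% in the fifth with the shortest exonic length and 25.8% in the fifth with the longest, and the share called lower was 24.4% and 17.7%. The shortest genes thus counted 388 higher and 680 lower, and the longest 720 and 495. Scaled by library totals alone, the shortest counted 665 higher and 416 lower, so their direction turned with the scaling, and the longest 1216 and 292. Reads on no annotated gene were also a larger share in MMI than in WT, as given above with the overlapping range of the second wild-type group. The part of transcript length in the differences between gene groups was not tested.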
